A study of Mus musculus with 60 samples.

Results

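The genes described here are 10 genes of toll-like receptor signalling that the study did not name, matched by gene symbol and gene identifier to the count tables, where they are 10 of 49315 genes. They are the receptors Tlr1, Tlr7, Tlr9 and Tlr13, the co-receptors Cd14 and Ly96, and the signalling genes Myd88, Irak3, Irak4 and Ticam2. All 10 passed the filter on low counts in every comparison. They were chosen as genes of a pathway and not by their values, although with earlier results of these data known.

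RNA of whole blood was sequenced from 60 CD2F1 mice, all male and aged 5 to 6 weeks at purchase. They formed 10 groups of 6, and each mouse gave 1 terminal blood sample. BIO300 holds synthetic genistein as an amorphous solid dispersion. It was gavaged each morning and evening for 6 days, the control groups receiving the vehicle of water, methylcellulose and povidone. Groups without radiation (Vehicle, BIO300-Low at 50 mg/kg, BIO300-Med at 100 mg/kg and BIO300-High at 200 mg/kg) were bled 24 h (Day 0) or 48 h (Day 1) past the final dose. Mice given vehicle or 200 mg/kg and then exposed to 9.2 Gy of cobalt-60 total-body irradiation (TBI) on Day 0 were bled on Day 1, 24 h after TBI. Mice shared cages and irradiated mice shared irradiation boxes, and which ones did was not given in the sources used here. The p-values measure the spread between mice and treat all mice as independent. An effect shared within a cage or box could not be separated.

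Toll-like receptors are membrane proteins that bind molecules of microbes. Tlr7, Tlr9 and Tlr13 sit in endosomes, where they bind single-stranded RNA, unmethylated CpG DNA and bacterial ribosomal RNA respectively, whereas Tlr1 pairs with Tlr2 at the cell surface to bind bacterial lipopeptides. Cd14 and Ly96 (MD-2) hand lipopolysaccharide to Tlr4. Myd88 is the adaptor used by most toll-like receptors, Irak4 is the kinase it recruits first, Irak3 (IRAK-M) dampens that signal, and Ticam2 (TRAM) links Tlr4 to the adaptor Ticam1 in endosomes. In blood these receptors are known mainly from neutrophils, monocytes, dendritic cells and B cells, with Tlr9 prominent in B cells and plasmacytoid dendritic cells.

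The 4 upstream sequences below are those of 4 members that were DEGs after TBI, described further on: Tlr1 and Tlr9 were lower and Tlr13 and Myd88 higher. Cd14, which had the largest change, and Irak4, which was also a DEG on the higher side, are not shown. They are RefSeq promoter sequences of build GRCm38.p6, 5′ to 3′ on the strand of the gene, starting 250 bases before the RefSeq start site and ending where an annotated exon begins or at the start site. They cover chr5:64933564-64933808 on the reverse strand for Tlr1, chr9:106222348-106222597 on the forward strand for Tlr9, chrX:106143025-106143203 on the forward strand for Tlr13 and chr9:119340042-119340268 on the reverse strand for Myd88. The Myd88 stretch precedes the RefSeq start site but lies inside the GENCODE gene, in an intron of a longer transcript. Capitals mark GAGGAA, a core bound by the myeloid and B cell factor PU.1, or the core of an interferon-stimulated response element, GAAA and GAAA with any 2 bases between them.
Tlr1: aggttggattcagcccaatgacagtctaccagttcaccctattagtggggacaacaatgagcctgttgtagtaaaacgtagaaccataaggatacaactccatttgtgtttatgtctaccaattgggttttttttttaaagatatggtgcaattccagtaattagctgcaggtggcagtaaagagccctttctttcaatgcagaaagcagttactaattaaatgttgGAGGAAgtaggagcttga
Tlr9: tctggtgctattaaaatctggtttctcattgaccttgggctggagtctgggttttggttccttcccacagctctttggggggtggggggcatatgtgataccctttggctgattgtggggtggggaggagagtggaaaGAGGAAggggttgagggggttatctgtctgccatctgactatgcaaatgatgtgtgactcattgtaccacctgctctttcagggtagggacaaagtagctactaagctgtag
Tlr13: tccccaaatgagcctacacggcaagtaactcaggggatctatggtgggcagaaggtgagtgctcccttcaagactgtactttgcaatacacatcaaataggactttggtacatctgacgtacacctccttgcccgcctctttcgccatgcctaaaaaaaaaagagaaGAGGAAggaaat
Myd88: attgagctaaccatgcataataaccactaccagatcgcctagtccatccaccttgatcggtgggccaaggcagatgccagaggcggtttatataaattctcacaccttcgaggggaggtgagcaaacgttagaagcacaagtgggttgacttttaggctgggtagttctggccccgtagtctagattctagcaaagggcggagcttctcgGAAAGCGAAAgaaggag

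GAGGAA stood in the 3 receptor sequences, on either strand, within the 250 bases searched, and in 23.3% of all 32851 promoters. It did not stand in the entries of Irak3 and Irak4, which are not shown, nor did any other pattern searched. The Irak4 entry holds only 50 bases. The interferon-stimulated core stood only in that of Myd88 among the 6 members with a promoter entry and in 2.98% of all promoters. Of the other 2 patterns searched, the AP-1 pattern TGANTCA stood in Tlr9 alone (6.75% of promoters) and the NF-kappaB pattern, GGGA and TTTCC with any base between them, in none of them (0.356% of promoters). The matches do not overlap each other, the patterns were chosen with the results of the members known, and a match is a description of the sequence only.

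By GENCODE vM21 (GRCm38), Tlr1 lies on chr5:64924679-64933563, next to its paralog Tlr6. Tlr7 lies on chrX:167304929-167330558, Tlr9 on chr9:106222598-106226883 and Tlr13 on chrX:106143204-106160493. Ly96 lies on chr1:16688051-16709611, Myd88 on chr9:119335934-119341411, Irak3 on chr10:120141648-120202130 and Irak4 on chr15:94543643-94581815, while Cd14 and Ticam2 lie on chromosome 18. All are protein coding, and the values below are counts over each whole gene. Exons of Ticam2 overlap those of Tmed7 on the same strand by 838 bases, so its counts are uncertain. Exons of Myd88 (290 bases with Acaa1a), Irak3 (192 bases with neighbours) and Irak4 (395 bases with Twf1) overlap genes of the opposite strand, from which reads can be told apart only if strand was used in counting, and this was not stated.

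Libraries held between 15099415 and 45589415 gene counts (median 24877994). Levels are given as CPM, the count of a gene scaled to a common library size, here with TMM factors over all 60 mice. These factors rest on the assumption that most genes do not differ between mice. DEG stands for a gene past both limits of the test, adjusted p below 0.05 and log2 difference above 1 in size. The choice of scaling matters in this series. When libraries were scaled by their total counts instead, the median log2 difference of all genes tested moved from -0.38 to -1.76 (100 mg/kg) and from -0.48 to -1.96 (200 mg/kg) on Day 1, from 0.09 to -0.28 after TBI and from 0.03 to 0.69 at 50 mg/kg on Day 0. Both scalings are therefore given below where they differ in direction for a member that passed the adjusted p under either of them. Independent of any scaling is the level of each gene as a percentage of Ptprc (CD45, carried by all leukocytes) in the same mouse. In whole blood, fewer cells of a type and less RNA per cell cannot be told apart.

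Markers of blood cells moved with the groups. Summed over 8 genes, B cell markers ranged from 1486 to 2362 CPM in Vehicle Day 1, from 420 to 1042 in BIO300-Med Day 1, from 260 to 858 in BIO300-High Day 1, and from 96.9 to 278 after TBI. Neutrophil markers (11 genes) ranged from 438 to 717 CPM in Vehicle Day 1 and from 557 to 941 in BIO300-Med Day 1. They ranged from 434 to 978 in BIO300-High Day 1 and from 1184 to 6676 after TBI. Of the 11 genes, 8 were DEGs on the higher and 1 on the lower side after TBI (19.6% and 16.4% of all genes). At 100 mg/kg these were 2 and 0 (18.2% and 30.6% of all genes), and at 200 mg/kg 0 and 0. Erythroid markers (7 genes) took a median of 13.5% of all counts in Vehicle Day 1, 22.8% in BIO300-Med Day 1 and 24.2% in BIO300-High Day 1. Markers of hepatocytes (13 genes) had group medians of 1.25 to 9.93 CPM, but the albumin gene Alb was above 100 CPM in 11 mice, at least 1 in every group but BIO300-Low Day 1, with the highest level of 16056 CPM in mouse 51 of the irradiated vehicle group. No marker gene of any list was at 0 over a whole group. The part of these cells in the results below was not tested.

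**Figure D1:**
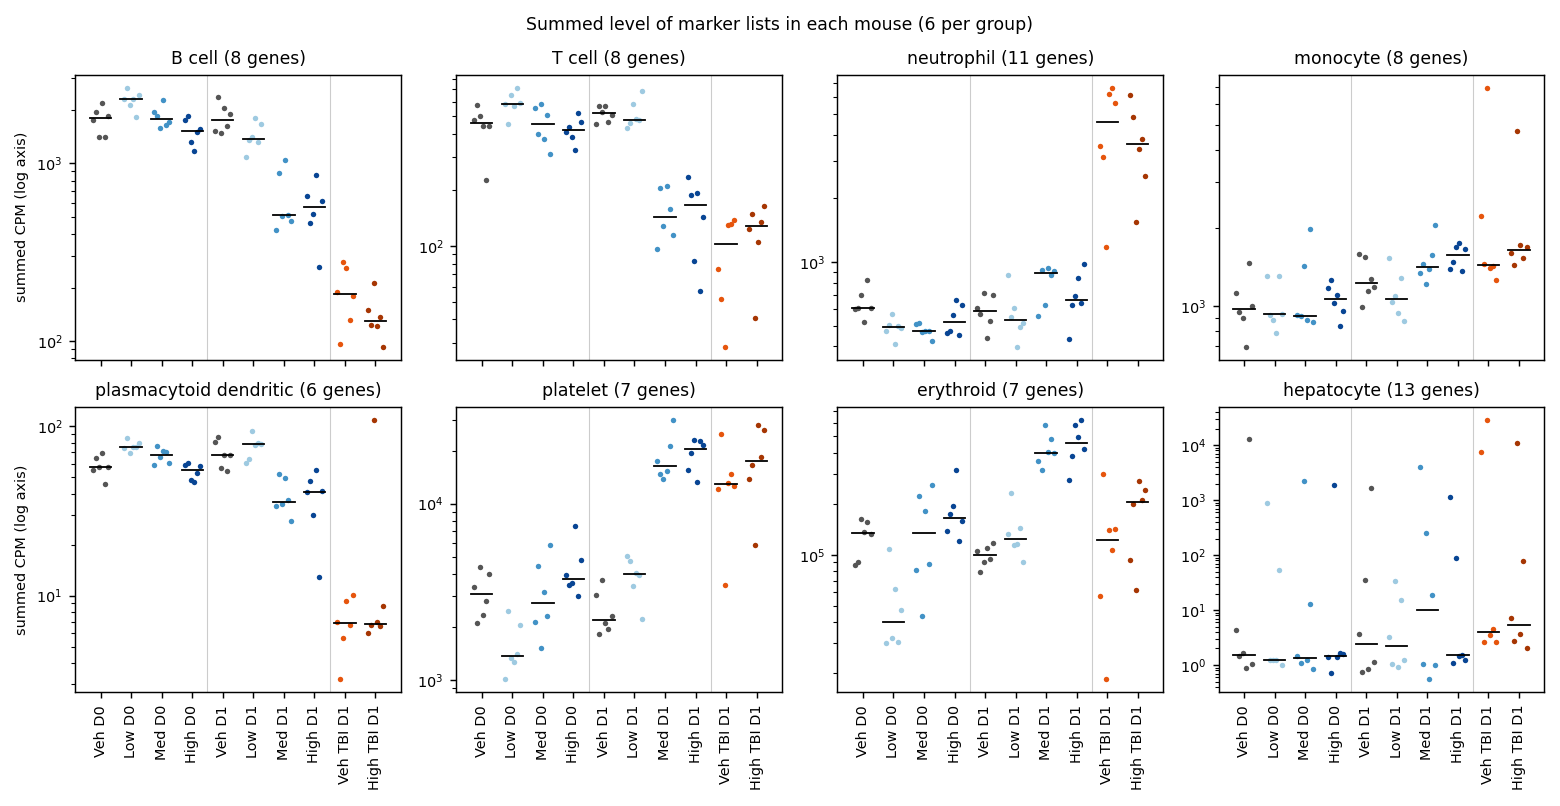
Summed CPM of 8 marker lists (vertical axis, log scale) in each of 6 mice per group (horizontal axis), with the median as a line. B cell and T cell markers were lower at 100 and 200 mg/kg on Day 1 and after TBI, neutrophil markers were highest after TBI, and single mice of most groups stand far above the rest for hepatocyte markers.

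On Day 1, the receptors Tlr1, Tlr7 and Tlr9 and the adaptor Ticam2 were at lower CPM with 100 mg/kg BIO300 than with vehicle. These 4 of 10 members were DEGs, all lower, against 30.6% of 23699 genes that were lower and 18.2% that were higher by the same rule. The share of members that were lower was near that background. Over the members the median log2 difference was -0.32 and over all genes it was -0.38. By the adjusted p alone 2 members were higher and 5 lower (25% and 40.6% of genes), and without overlap between the groups 1 was higher and 4 were lower (17.2% and 30.5% of genes).

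Tlr9 was at 14.4 CPM in the lowest, 17.6 in the median and 22.9 in the highest mouse of Vehicle Day 1, and at 1.29, 3.44 and 6.05 CPM at 100 mg/kg. All treated mice lay below all vehicle mice, a 4.47-fold lower level (log2 difference -2.16, SE 0.31, adjusted p = 3.1e-05). Tlr1 went from 28.3, 29.9 and 37.8 CPM (lowest, median, highest) in vehicle to 4.06, 6.06 and 12.7 CPM, again without overlap (log2 difference -1.94, SE 0.26, adjusted p = 1.51e-05). Its paralog Tlr6 was at a mean of 16.4 ± 1.2 CPM (SD, n = 6) in vehicle and 4.4 ± 1.1 CPM (SD, n = 6) at 100 mg/kg.

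Tlr7 lay between 23.9 and 28.4 CPM in vehicle (median 25.2) and between 7.14 and 18.9 CPM at 100 mg/kg (median 9.21). The log2 difference was -1.18 (SE 0.20, adjusted p = 0.000165), and no treated mouse reached the vehicle range. Without the mice with Alb above 100 CPM, the difference was -0.997 and Tlr7 was no longer a DEG (adjusted p = 0.000548). Ticam2 was at 4.05 to 6.69 CPM in vehicle (median 4.88) and 1.29 to 3.78 CPM at 100 mg/kg (median 1.79), a log2 difference of -1.12 (SE 0.29, adjusted p = 0.004) that became -0.93 without those mice. Tmed7, which shares exon sequence with Ticam2, was at 73.0 ± 12.8 CPM in vehicle and 140.6 ± 16.9 CPM at 100 mg/kg (SD, n = 6 each).

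The other members were not DEGs at 100 mg/kg. Irak3, the inhibitory kinase, was at 13.7 to 16.6 CPM in vehicle (median 14.6) and 17.4 to 29.0 CPM at 100 mg/kg (median 21.6) without overlap. Its log2 difference was 0.68 with TMM scaling (SE 0.12, adjusted p = 0.000228) and -0.73 with total counts, so its direction depends on the scaling. Irak4 behaved alike in this respect, at 0.35 with TMM scaling (SE 0.14, adjusted p = 0.0363) and -1.05 with total counts. Tlr13 was lower under both scalings, by -0.49 (SE 0.20, adjusted p = 0.0461) and -1.88, but its ranges overlapped (26.3 to 34.5 CPM in vehicle, 10.6 to 30.5 CPM at 100 mg/kg) and without the mice with high Alb the adjusted p was 0.157.

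Cd14, Ly96 and Myd88 did not pass the test at 100 mg/kg with TMM scaling. Their log2 differences were -0.15 (SE 0.25), 0.35 (SE 0.25) and 0.14 (SE 0.18), and their ranges overlapped those of vehicle. With total counts they were -1.56, -1.08 and -1.25, and 9 members, all but Irak3, were then DEGs on the lower side, against 62.2% of all genes. Tlr1, Tlr7, Tlr9 and Ticam2 were lower under both scalings.

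At 200 mg/kg on Day 1 the same vehicle mice were the control, as they are for the irradiated mice further on. Tlr1 and Tlr9 were DEGs, 2 of 10 members, where 30.5% of 23513 genes were lower and 17.3% higher. Tlr9 was at 0.976, 3.59 and 8.31 CPM in the lowest, median and highest mouse (log2 difference -2.03, SE 0.33, adjusted p = 9.6e-05). Tlr1 was at 2.06, 6.30 and 14.0 CPM (log2 difference -1.98, SE 0.30, adjusted p = 6.42e-05). Both genes had no overlap with vehicle. By the adjusted p alone 1 member was higher and 5 were lower (23.6% and 39.9% of genes), and without overlap 1 was higher and 3 were lower (16.5% and 30.5% of genes).

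Tlr7 and Ticam2 passed the adjusted p at 200 mg/kg but stood just short of the log2 limit of 1. Tlr7 was at 4.55 to 22.9 CPM (median 12.5), below all vehicle mice, with a log2 difference of -0.98 (SE 0.28, adjusted p = 0.00735). Ticam2 was at 0.542 to 4.10 CPM (median 2.36), overlapping vehicle by a narrow margin, with a log2 difference of -0.96 (SE 0.35, adjusted p = 0.0258). Leaving out mouse 46, which had the highest Tlr7 and Ticam2 of its group, moved both past the limit, to -1.26 and -1.15, and so did leaving out vehicle mouse 26.

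Irak3 was at 16.7 to 28.5 CPM at 200 mg/kg (median 22.2), above all vehicle mice, with a log2 difference of 0.66 (SE 0.13, adjusted p = 0.000508) that turned to -0.87 with total counts. Tlr13 differed by -0.32 (SE 0.13, adjusted p = 0.049) and Irak4 by 0.31 (SE 0.16, adjusted p = 0.0962). Cd14 was at 0.650 to 2.34 CPM against 1.92 to 3.34 CPM in vehicle, a log2 difference of -0.60 that did not pass (SE 0.29, adjusted p = 0.0829). Ly96 and Myd88 differed by 0.25 (SE 0.26) and 0.03 (SE 0.19). As at the middle dose, 9 members without Irak3 were DEGs on the lower side with total counts, against 65.5% of all genes.

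The members were also measured against Ptprc in the same mouse. Ptprc itself was at 547 to 701 CPM in Vehicle Day 1, 102 to 258 CPM at 100 mg/kg and 104 to 282 CPM at 200 mg/kg. Tlr1 amounted to 4.97% of Ptprc in vehicle and 4.01% at 100 mg/kg on average, with overlapping ranges. Tlr9 amounted to 2.83% and 1.94%, also overlapping. Tlr7 and Ticam2, although lower in CPM, had higher mean ratios than vehicle, with ranges that overlapped it. The Tlr7 mean was 4.10% in Vehicle Day 1, 5.74% in BIO300-Med Day 1 and 5.51% in BIO300-High Day 1. In the same order of groups, Ticam2 had means of 0.831%, 1.18% and 1.09%. Irak3 amounted to 2.38% (1.99 to 2.58%) in vehicle, 13.1% (8.12 to 20.3%) at 100 mg/kg and 12.0% (6.05 to 19.6%) in BIO300-High Day 1. At 100 mg/kg, 6 members (Tlr13, Cd14, Ly96, Myd88, Irak3 and Irak4) were higher relative to Ptprc without overlap, where 41.9% of all genes were, and none was lower (6.45% of all genes). At 200 mg/kg these were 5, without Cd14, where 38.1% of all genes were higher, and 0 were lower (6.97% of all genes).

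**Figure D2:**
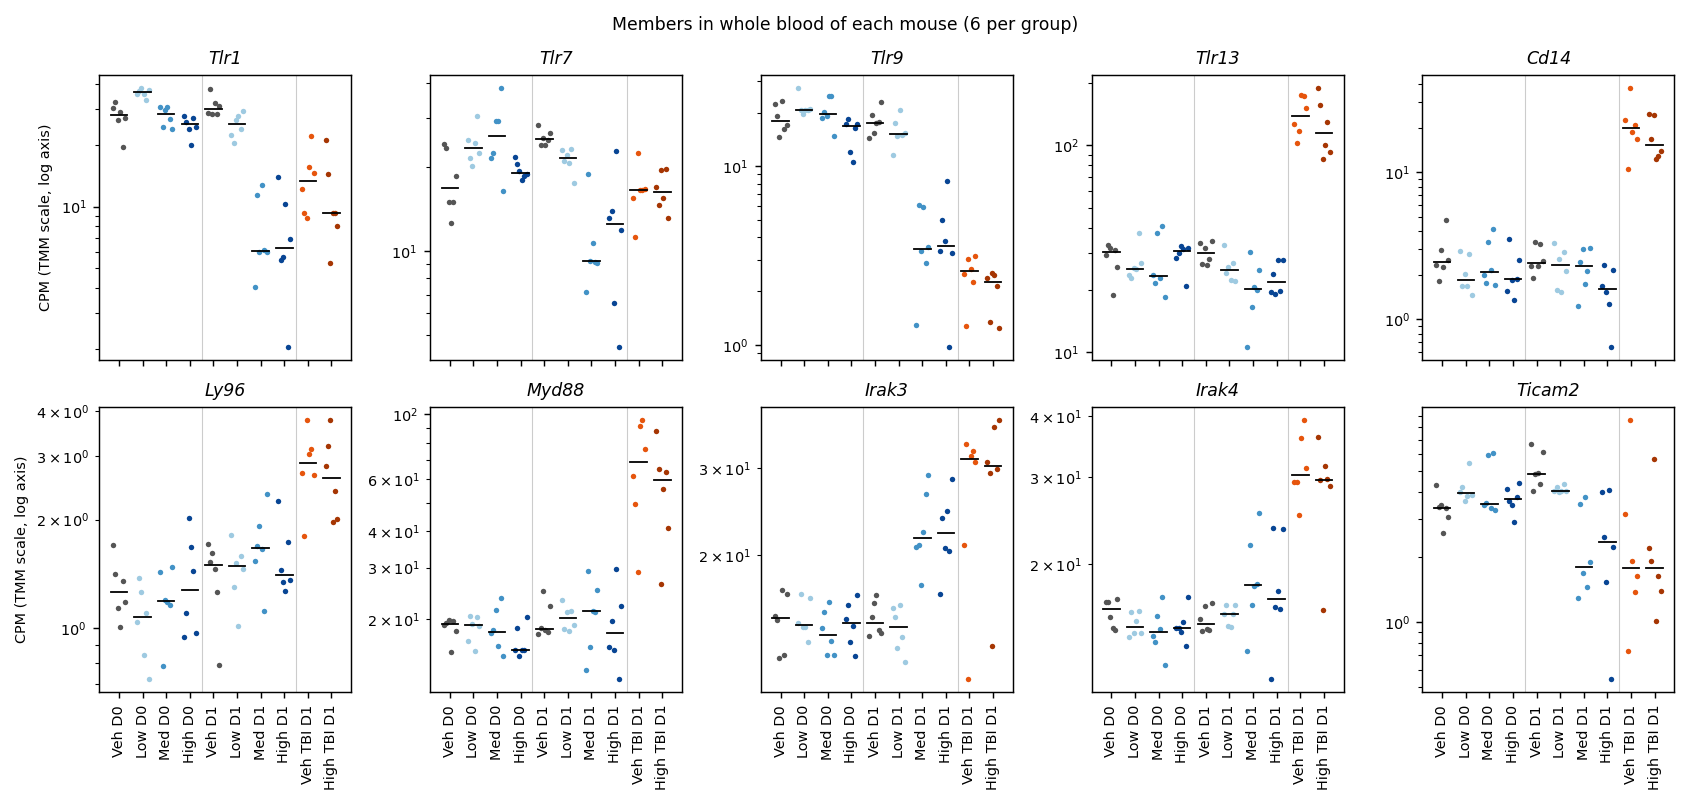
CPM of each member (vertical axis, log scale) in each of 6 mice per group (horizontal axis), with the median as a line. Tlr1, Tlr7, Tlr9 and Ticam2 are low at 100 and 200 mg/kg on Day 1, whereas Tlr13, Cd14, Ly96, Myd88 and Irak4 are highest in the irradiated groups.

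The lower dose and the earlier day showed little. At 50 mg/kg on Day 1, no member and none of 24118 genes was a DEG (2 genes, 0.00829%, passed the adjusted p, and 18.5% had an unadjusted p under 0.05, as had 4 members by edgeR). The largest differences there were -0.31 (SE 0.12) for Ticam2 and -0.30 (SE 0.10) for Tlr1, with adjusted p of 0.191 and 0.143. Tlr7 was at 17.6 to 23.1 CPM at 50 mg/kg, below all mice of Vehicle Day 1 as 0.983% of all genes were, with a log2 difference of -0.25 (SE 0.08, adjusted p = 0.128).

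On Day 0, Tlr1 was higher at 50 mg/kg, with 33.1, 36.3 and 38.3 CPM in the lowest, median and highest mouse against 19.5, 28.2 and 32.4 CPM in vehicle. The groups did not overlap, as for 2.53% of genes on the higher side, and the log2 difference was 0.40 (SE 0.10, adjusted p = 0.0213), short of a DEG. No other member passed the adjusted p in this comparison (4.21% of 24485 genes did on the higher and 9.87% on the lower side), and no member was a DEG against 4.5% of genes. With total counts, Tlr1 and Tlr7 differed by 1.05 and 1.06 and were DEGs on the higher side, as were 10.5% of all genes. At 100 and 200 mg/kg on Day 0 no member and no gene passed the adjusted p in edgeR (0% of genes). Before adjustment, 3.02% and 9.02% of genes and 1 and 0 members had p below 0.05, and DESeq2 called no member a DEG in either.

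The effect of dose differed between the days. In a fit of 4 groups, the Day 1 difference minus the Day 0 difference at 100 mg/kg was -2.30 for Tlr9 (SE 0.34, adjusted p = 6.93e-06), -1.97 for Tlr1 (SE 0.28, adjusted p = 4.27e-06), -1.73 for Tlr7 (SE 0.30, adjusted p = 4.17e-05) and -1.48 for Ticam2 (SE 0.35, adjusted p = 0.00102). These 4 members were DEGs of the contrast, as were 26.3% of genes in this direction. At 200 mg/kg the same genes gave -1.75 for Tlr9 (SE 0.37), -1.85 for Tlr1 (SE 0.34), -1.10 for Tlr7 (SE 0.33) and -1.13 for Ticam2 (SE 0.39), where 23.6% of genes were lower. At 50 mg/kg no member was a DEG of the contrast (7.69% of genes were), while Tlr1, Tlr7 and Ticam2 passed the adjusted p (7.04% of genes did on the lower side) with -0.70 (SE 0.15), -0.67 (SE 0.18) and -0.63 (SE 0.18). Between the vehicle groups of Day 1 and Day 0 no member and no gene passed the adjusted p in edgeR (0% of 24375 genes, with 12.3% of genes and 2 members, Tlr7 and Ticam2, at an unadjusted p under 0.05). DESeq2 gave these 2 members adjusted p of 0.0316 and 0.0134, with differences under 1. With DESeq2, the study reported a small number of DEGs between these vehicle groups.

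Irradiation changed 9 of 10 members by the adjusted p, 6 higher (24.4% of genes) and 3 lower (22.4% of genes). Relative to unirradiated Vehicle Day 1 mice, Tlr13, Cd14, Myd88 and Irak4 were DEGs on the higher side (4 members, with 19.6% of 25146 genes) and Tlr1 and Tlr9 on the lower side (2 members, with 16.4% of genes). The median log2 difference was 0.91 over the members and 0.09 over all genes. Without overlap between groups, 5 members were higher (11.1% of genes) and 3 were lower (14.0% of genes).

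Cd14, the lipopolysaccharide co-receptor, was at 1.92, 2.41 and 3.34 CPM in the lowest, median and highest mouse of Vehicle Day 1 and at 10.5, 19.9 and 37.8 CPM after TBI. Every irradiated mouse lay above every unirradiated one, a 7.94-fold higher level (log2 difference 2.99, SE 0.28, adjusted p = 9.17e-06). The highest value came from mouse 51, which had the highest Alb, and without the mice with high Alb the difference was 2.79. Ly96, its partner in the Tlr4 complex, went from 0.790, 1.49 and 1.71 CPM to 1.81, 2.87 and 3.78 CPM. Its log2 difference was just under 1 and so not a DEG (0.9998, SE 0.24, adjusted p = 0.00445). Without vehicle mouse 26 it was 1.03, and with total counts 0.63 (adjusted p = 0.155).

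Tlr13, the sensor of bacterial ribosomal RNA, was at 26.3, 30.1 and 34.5 CPM in vehicle and 103, 139 and 176 CPM after TBI, with no overlap (log2 difference 2.20, SE 0.17, adjusted p = 3.32e-06). Tlr9 and Tlr7 were lower than in Vehicle Day 1. Tlr9 dropped from 14.4, 17.6 and 22.9 CPM to 1.27, 2.59 and 3.15 CPM, a 7.33-fold lower level without overlap (log2 difference -2.87, SE 0.22, adjusted p = 3.32e-06). Tlr7 went from 23.9 to 28.4 CPM in vehicle to 11.2 to 22.4 CPM, also without overlap, with a log2 difference of -0.66 (SE 0.15, adjusted p = 0.00305). Tlr1 went from 28.3 to 37.8 CPM to 8.76 to 22.1 CPM (log2 difference -1.20, SE 0.22, adjusted p = 0.000874), while Tlr6 beside it was at 16.4 ± 1.2 CPM in vehicle and 43.0 ± 19.0 CPM after TBI (SD, n = 6 each).

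Of the signalling genes, Myd88 was at 17.8, 18.5 and 25.0 CPM in vehicle and 28.9, 68.8 and 95.8 CPM after TBI, all irradiated mice above all others (log2 difference 1.73, SE 0.27, adjusted p = 0.000228). Irak4 was at 14.6 to 16.7 CPM in vehicle and 25.2 to 39.2 CPM after TBI without overlap (log2 difference 1.01, SE 0.14, adjusted p = 9.42e-05). It left the DEGs when mouse 52 or mouse 53 was left out, with 0.94 as the lowest value. Irak3 was at 13.7 to 16.6 CPM in vehicle and 11.2 to 33.6 CPM after TBI, where mouse 51 was lowest (log2 difference 0.82, SE 0.24, adjusted p = 0.0133), and it was at 1.12 without the mice with high Alb. Ticam2 did not pass (log2 difference -0.86, SE 0.47, adjusted p = 0.146). Its 6 irradiated mice ran from 0.735 to 8.68 CPM with a median of 1.77, mouse 51 again standing highest, and without the mice with high Alb its difference was -1.84 (adjusted p = 1.45e-05).

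With total counts, Tlr13, Cd14 and Myd88 stayed DEGs on the higher side (1.81, 2.71 and 1.30) and Tlr1 and Tlr9 on the lower side (-1.61 and -3.21), joined by Tlr7 (-1.005), against 12.4% and 22.5% of all genes. Irak4 was at 0.60 and Irak3 at 0.34, the latter not past the adjusted p (0.197). Relative to Ptprc, Tlr13 amounted to 4.84% in vehicle and 21.6% after TBI, Cd14 to 0.417% and 3.95%, Myd88 to 3.19% and 9.30%, and Tlr9 to 2.83% and 0.410%. By this ratio 5 members (Tlr13, Cd14, Myd88, Irak3 and Irak4) were higher and 2 (Tlr1 and Tlr9) lower without overlap, against 11.1% and 7.37% of all genes.

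Set against Vehicle Day 0 instead, the irradiated mice gave 5 members higher (Tlr13, Cd14, Ly96, Myd88 and Irak4, where 15.1% of genes were higher) and 1 lower (Tlr9, where 11.8% were lower). Ly96 was then at 1.20 (SE 0.21, adjusted p = 0.000797) and Tlr1 at -0.90 (SE 0.25, adjusted p = 0.0135). Tlr7 was at -0.07 (SE 0.19, adjusted p = 0.796), and its level in Vehicle Day 0 ranged from 12.6 to 24.2 CPM. Both comparisons share the irradiated mice.

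**Figure D3:**
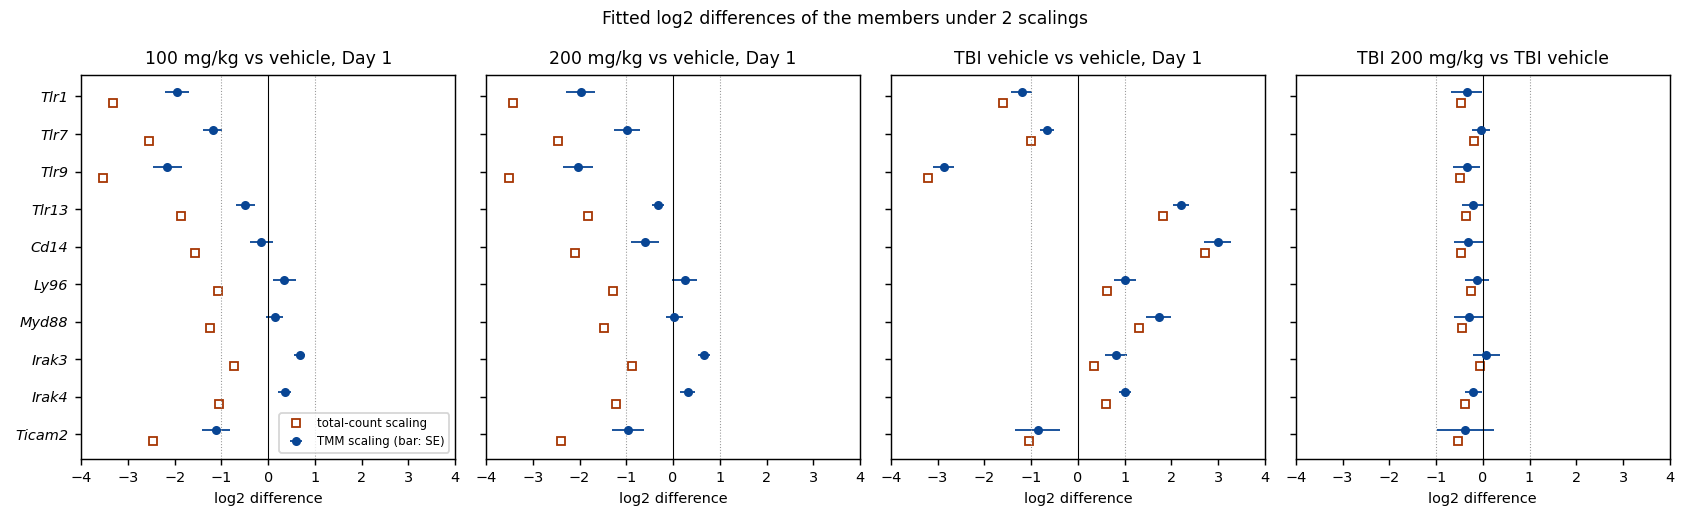
Log2 difference (horizontal axis) of each member in 4 comparisons, as filled points with SE bars for TMM scaling and open squares for total-count scaling, with dotted lines at an absolute log2 difference of 1. Under both scalings Tlr1, Tlr7, Tlr9 and Ticam2 lie below 0 on Day 1 at 100 and 200 mg/kg and Tlr13, Cd14 and Myd88 lie above 0 after TBI, whereas Irak3, Irak4, Ly96 and Myd88 change side between scalings at 100 and 200 mg/kg.

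Among irradiated mice, 200 mg/kg BIO300 and vehicle could not be told apart in any member. No member and no gene passed the adjusted p in edgeR (0% of 24916 genes), before adjustment 2.76% of genes and 0 members had p below 0.05, and DESeq2 also called no member. The log2 differences of the members ran from -0.37 for Ticam2 (SE 0.61) to 0.08 for Irak3 (SE 0.29). Single mice moved these values: without mouse 51 Ticam2 was at 0.38, Tlr7 at 0.09, Irak3 at -0.06, Cd14 at -0.05 and Ly96 at -0.0018. Without mouse 57 Ticam2 was at -0.93. For Cd14 it was -0.31 (SE 0.31), with 12.4, 15.4 and 25.1 CPM in the lowest, median and highest BIO300 mouse. For Tlr13 it was -0.22 (SE 0.22, with 85.9, 115 and 190 CPM), for Myd88 -0.30 (SE 0.31, with 26.4, 59.8 and 87.5 CPM) and for Tlr9 -0.34 (SE 0.29, with 1.24, 2.25 and 2.52 CPM). Their ranges overlapped those of the irradiated vehicle mice. A p that misses the threshold leaves room for differences of the size of these errors.

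The irradiated BIO300 mice compared with Vehicle Day 1 gave 3 members higher (Tlr13 at 2.05, SE 0.21, Cd14 at 2.73, SE 0.23, and Myd88 at 1.49, SE 0.25, where 19.6% of genes were higher) and 3 lower (Tlr9 at -3.17, SE 0.21, Tlr1 at -1.47, SE 0.29, and Ticam2 at -1.20, SE 0.35, where 16.9% were lower). All 10 members passed the adjusted p here, as did 49.3% of genes. The effect of 200 mg/kg differed with radiation for 3 receptors. The difference of BIO300 from vehicle in irradiated mice minus that in unirradiated Day 1 mice was 1.90 for Tlr9 (SE 0.47, adjusted p = 0.00343), 1.86 for Tlr1 (SE 0.48, adjusted p = 0.00464) and 1.16 for Tlr7 (SE 0.37, adjusted p = 0.0181), and 19.5% of 26875 genes were DEGs in this direction. For the other 7 members the contrast lay between -0.36 and 0.81 and did not pass. The median contrast was 0.42 over the members and 0.60 over all genes, and with total counts it was 1.55 and 1.68.

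Over the 10 groups, the order of the mean levels put the irradiated groups first for Tlr13, Cd14, Ly96, Myd88, Irak3 and Irak4. For Tlr13 and Cd14 the step down from the irradiated to the unirradiated groups, from 126 to 30.2 CPM and from 17.6 to 2.77 CPM, was larger than the SD of either neighbour and left no overlap, and no later step exceeded the SD. For Ly96, Myd88 and Irak4 the same step (2.70 to 1.71, 56.6 to 21.0 and 28.7 to 18.9 CPM, each down to BIO300-Med Day 1) exceeded the SD but the ranges overlapped. For Irak3 the step came after the 100 and 200 mg/kg groups of Day 1 (22.4 to 15.0 CPM). For Tlr9 the break lay between BIO300-High Day 0 (15.3 ± 3.20 CPM) and BIO300-High Day 1 (4.13 ± 2.43 CPM, SD, n = 6 each), with the irradiated groups last at 2.48 ± 0.676 and 2.01 ± 0.572 CPM. Tlr1 had BIO300-Low Day 0 first, and then a break between BIO300-High Day 0 (24.9 ± 2.84 CPM) and Vehicle TBI Day 1 (13.8 ± 4.92 CPM), with the 100 and 200 mg/kg groups of Day 1 last. For Tlr7 and Ticam2 no neighbours in the order differed by more than the larger of their SDs.

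Per kilobase of exon, which allows genes to be compared, Tlr1 had the highest level in Vehicle Day 1 (9.30 CPM per kb), followed by Myd88 (7.77), Tlr13 (7.02), Tlr7 (6.25), Tlr9 (5.13), Irak3 (4.06) and Irak4 (3.08 CPM per kb). Cd14 (1.502), Ly96 (1.37) and Ticam2 (0.892 CPM per kb) were lowest. After TBI, Tlr13 (32.9 CPM per kb), Myd88 (26.1) and Cd14 (12.3) came first, and Tlr9 (0.712) and Ticam2 (0.504) last. These means rest on whole-gene counts and a common exon length for all transcripts.

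**Figure D4:**
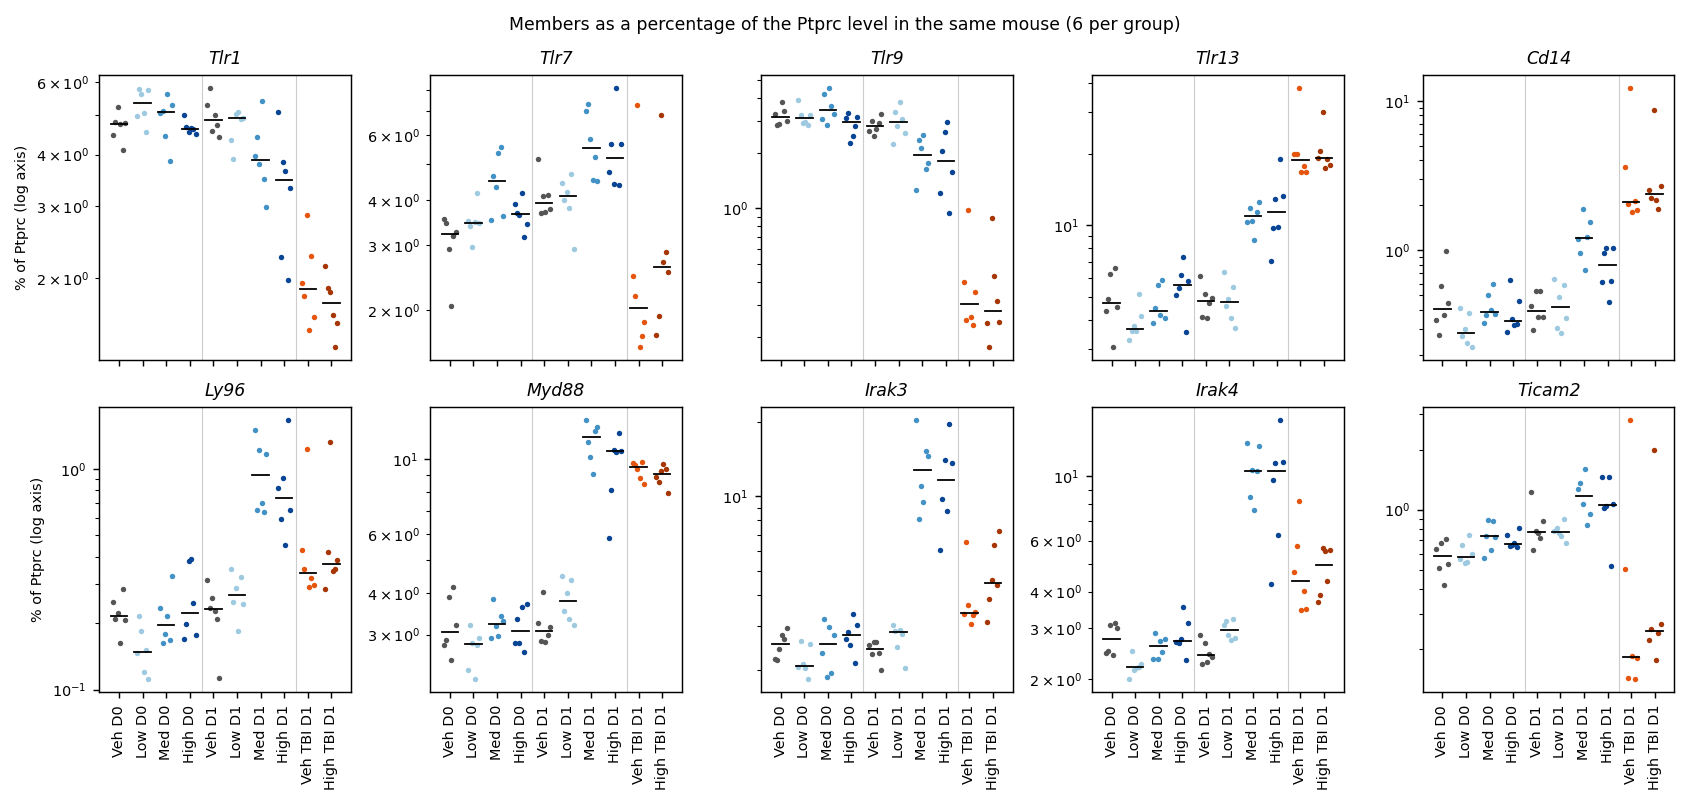
Each member as a percentage of the Ptprc level in the same mouse (vertical axis, log scale), for 6 mice per group (horizontal axis), with the median as a line. In the irradiated vehicle group Tlr1 and Tlr9 lie below Vehicle Day 1, while Myd88, Irak3 and Irak4 stand higher at 100 and 200 mg/kg on Day 1.

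The genes whose log2(CPM + 1) most resembled a member over the 60 mice were sought among 8439 genes that reached a group mean of 10 CPM. The mice share groups and libraries, so Pearson's r is given as a description, first over the mice and then with group means removed. For Tlr9 they were Pou2f2 (0.98 and 0.86), Cd22 (0.98 and 0.76) and Eml4 (0.97 and 0.74), the first being a B cell transcription factor and the second a B cell surface lectin that is also in the B cell list. For Tlr1 they were Card6 (0.98 and 0.92), Siglecg (0.98 and 0.93), a sialic acid receptor of B cells, and Birc3 (0.98 and 0.89). For Tlr7 the likeness was weaker, with Ctss (0.90 and 0.80), Slc29a3 (0.88 and 0.78) and Elmo2 (0.88 and 0.86), where Ctss is the endosomal protease cathepsin S.

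For Tlr13 they were Pla2g7 (0.98 and 0.82), Tgfbi (0.98 and 0.84) and Slc11a1 (0.97 and 0.85), the last a metal transporter of phagosomes. For Cd14 they were Emilin2 (0.96 and 0.70), Padi4 (0.95 and 0.78) and the integrin gene Itgam (0.95 and 0.75). For Myd88 they were the myeloid kinase gene Fgr (0.99 and 0.95), Pglyrp1 (0.98 and 0.90) and Clec7a (0.97 and 0.91). The last 2 encode proteins that bind peptidoglycan and beta-glucan respectively. Irak3 was closest to Myl12b (0.94 and 0.89), Bcl10 (0.94 and 0.86) and Rhog (0.94 and 0.86), Irak4 to Anxa2 (0.94 and 0.75), Pbx2 (0.94 and 0.78) and Gab2 (0.94 and 0.78), and Ticam2 to Cybb (0.93 and 0.90), B4galt5 (0.92 and 0.91) and Ctsc (0.92 and 0.92). For Ly96 the closest genes, 1110008F13Rik (0.86 and 0.50), Slc9a3r2 (0.85 and 0.46) and Atp6v0b (0.83 and 0.46), lost much of their likeness within groups.

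The other 48 genes of the pathway, listed by role, were all tested. At 100 mg/kg on Day 1, 6 of them were DEGs on the higher and 18 on the lower side, where 18.2% and 30.6% of all genes were, with a median log2 difference of -0.81 against -0.38 over all genes. The other 9 receptors had 6 lower and 0 higher, the 8 transcription factors 3 lower and 0 higher, the 18 adaptors and kinases 4 lower and 3 higher, the 7 chaperones and co-receptors 3 lower and 1 higher, and the 6 inhibitors 2 lower and 2 higher. Tlr11, a receptor for profilin of parasites, was at 2.03 ± 1.01 CPM in vehicle and 0.337 ± 0.168 CPM at 100 mg/kg (log2 difference -2.56, SE 0.42). Tollip, an inhibitor of toll-like receptor signalling, was at 51.6 ± 7.81 and 250 ± 102 CPM (log2 difference 2.33, SE 0.21, and 0.92 with total counts), and Sigirr, another inhibitor, at 8.66 ± 0.606 and 2.30 ± 0.681 CPM (log2 difference -1.84, SE 0.19, SD with n = 6 each). Sarm1, a TIR-domain enzyme, was at 0.576 ± 0.128 and 0.149 ± 0.0435 CPM (log2 difference -1.85, SE 0.31).

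At 200 mg/kg on Day 1, 8 of the 48 were higher and 13 lower, near the 17.3% and 30.5% of all genes. Sarm1 had the largest difference (-3.07, SE 0.62) at very low levels, 0.441 to 0.775 CPM in vehicle and 0 to 0.191 CPM at 200 mg/kg. Tollip (log2 difference 2.42, SE 0.14), the lipid receptor Cd36 (1.91, SE 0.19) and the kinase Chuk (1.68, SE 0.11) followed in size, and with total counts they were at 0.88, 0.37 and 0.13. With total counts none of the 48 was higher and 37 were lower at either dose, where 62.2% and 65.5% of all genes were lower. At 50 mg/kg on Day 0, Cd36 (-1.40, SE 0.22) and Tab3 (-1.30, SE 0.20) were the 2 DEGs of the 48. For BIO300-Med and BIO300-High on Day 0, BIO300-Low on Day 1, and the vehicle groups or the irradiated groups against each other, none of the 48 passed the adjusted p.

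After TBI, 10 of the 48 were higher and 9 lower relative to Vehicle Day 1, near the 19.6% and 16.4% of all genes. Of the other receptors 5 were higher and 2 lower, of the transcription factors 1 higher and 3 lower, of the adaptors and kinases 2 higher and 2 lower, and of the inhibitors and of the chaperones and co-receptors 1 higher and 1 lower each. Tlr5, the flagellin receptor, was at 1.43 ± 0.401 CPM in vehicle and 8.10 ± 2.51 CPM after TBI (log2 difference 2.48, SE 0.28). Irf8, a transcription factor of B cells, dendritic cells and monocytes, was at 87.3 ± 11.2 and 9.81 ± 2.44 CPM (log2 difference -3.18, SE 0.18), and Tlr11 at 2.03 ± 1.01 and 0.216 ± 0.145 CPM (log2 difference -3.27, SE 0.49, SD with n = 6 each). Lbp, the lipopolysaccharide-binding protein made mainly by liver, had the largest difference (4.87, SE 1.51, adjusted p = 0.0189). Irradiated mice ran from 0.377 to 74.3 CPM (15.1 ± 29.5, SD, n = 6) and overlapped the vehicle mice, at 0.029 to 1.70 CPM. Mice 49 and 51 of the irradiated group had Alb above 100 CPM, and a fit of Lbp without such mice is not given here.

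**Figure D5:**
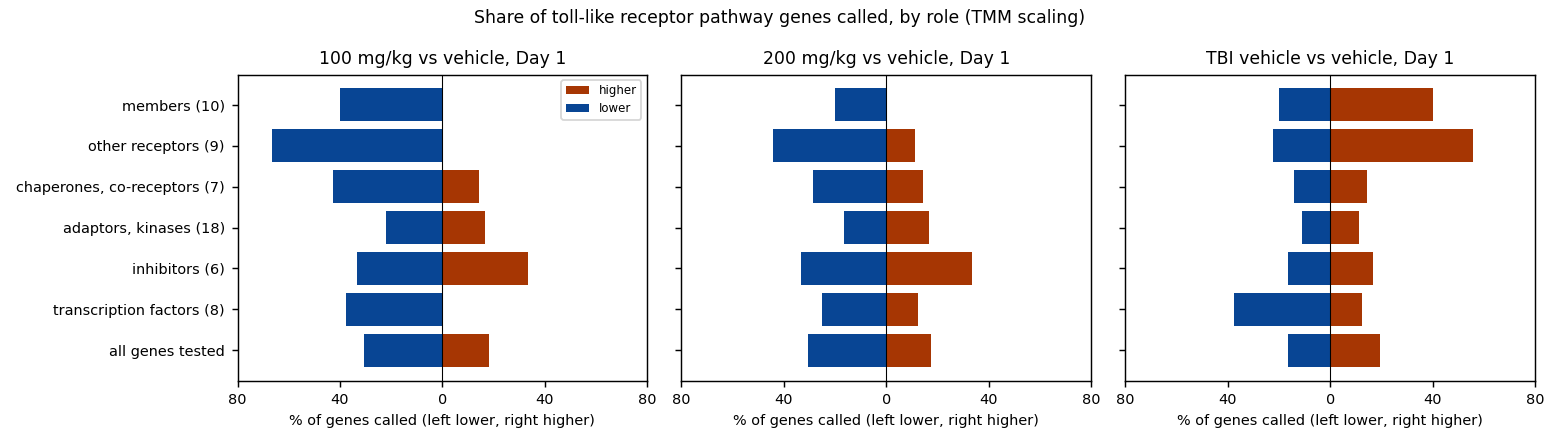
Percentage of genes that were DEGs (horizontal axis, lower to the left and higher to the right) among the 10 members, 5 lists of other pathway genes by role (number of genes in brackets) and all genes tested, in 3 comparisons with TMM scaling. The members have 40% lower and 0% higher at 100 mg/kg on Day 1, 20% lower and 0% higher at 200 mg/kg, and 20% lower and 40% higher after TBI.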

How the data were processed

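Whole blood RNA of 60 mice was sequenced. Per the labels and the study's methods, Trimmomatic v.0.36 served the authors for trimming, STAR v.2.5.2b for alignment (build GRCm38) and Subread v.1.5.2 for counting reads that hit 1 gene. The deposited counts are whole numbers per gene without normalization. The annotation release and the use of strand were not given in the sources used here. Library preparation is described as poly(A) selection in the labels but as depletion of globin and ribosomal RNA in the methods. The deposited normalized signal columns, counts divided by the authors by 1 size factor per mouse, were used only to check columns, and fold changes and p-values of the authors' own DESeq2 comparisons, which the deposited tables also hold, were not used.

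Mice were assigned to 10 groups of 6 by their labels. Each pair of groups was fitted with edgeR 4.0.16 (glmQLFit, glmQLFTest) in R 4.3.3 with TMM scaling, keeping genes whose counts over the fitted mice reached 10, with Benjamini-Hochberg adjustment over every gene tested. Differences between differences were contrasts in fits of 4 groups. SE is the log2 difference divided by the square root of F. Levels and overlaps use TMM scaling over all 60 mice. DESeq2 1.42.0 was an alternative, with RLE and total-count scaling, filterByExpr, genes with any count, 1 fit of all mice, a term for odd or even animal number, mice with Alb above 100 CPM left out and each mouse left out in turn. The fits were tested on simulated data in which a small set of genes was changed in either direction. That test does not show how the scaling behaves where a large share of genes differs. Counts cover between 15099415 and 45589415 per mouse, so for the lowest member levels counting error adds to the spread between mice.

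The members and all gene lists were chosen with earlier results of these data known. Named are all 10 members, at most 4 other pathway genes per comparison with the largest absolute log2 difference among DEGs, and the 3 genes most like each member. No 2 mice of a group agreed within sampling noise (smallest chi-square per gene 10.8).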

Additional observations from a re-analysis of the deposited data

Results flagged for a closer look

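Of 100 sets of 6 mice (10 members in 10 groups), 7 held a mouse that stood apart from the other 5 on log2(CPM + 1) by Dixon's test, where chance gives about 1 in 20. Tlr9 was at 27.6 CPM in mouse 1 of BIO300-Low Day 0, against 19.7 to 20.9 CPM in the others. In the same group, mouse 5 had Tlr13 at 37.5 CPM (others 22.8 to 26.8 CPM) and Ticam2 at 5.44 CPM (others 3.65 to 4.23 CPM). Tlr13 was at 20.9 CPM in mouse 23 of BIO300-High Day 0 (others 28.4 to 32.6 CPM), and Myd88 at 15.4 CPM in mouse 16 of Vehicle Day 0 (others 18.3 to 19.8 CPM). Mouse 57 of the irradiated BIO300 group had Irak3 at 13.1 CPM (others 29.3 to 37.6 CPM) and Irak4 at 16.2 CPM (others 28.9 to 36.3 CPM), and Alb was at 5623 CPM in this mouse.

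The difference of 100 mg/kg from vehicle on Day 1 minus that on Day 0 was tested and passed for Tlr1 (-1.97), Tlr7 (-1.73), Tlr9 (-2.30) and Ticam2 (-1.48) on the log2 scale. At 200 mg/kg it passed for Tlr1 (-1.85), Tlr7 (-1.10), Tlr9 (-1.75) and Ticam2 (-1.13). The effect of 200 mg/kg differed between irradiated and unirradiated mice for Tlr1 (1.86), Tlr7 (1.16) and Tlr9 (1.90).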

How the results depend on the processing

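Scaling by total counts moved the most results. The number of members that were DEGs became 2 at 50 mg/kg on Day 0 (from 0), 9 at 100 mg/kg on Day 1 (from 4), 9 at 200 mg/kg on Day 1 (from 2), and in the contrasts between days 6 at 50 mg/kg (from 0), 9 at 100 mg/kg (from 4) and 8 at 200 mg/kg (from 4), and 5 in the contrast with radiation (from 3). Among differences that passed the adjusted p under either scaling, it turned the direction of Tlr13 (0.61) and Irak4 (0.59) at 50 mg/kg on Day 0. On Day 1 it turned Ly96 (-1.08), Myd88 (-1.25), Irak3 (-0.73) and Irak4 (-1.05) at 100 mg/kg, and Ly96 (-1.28), Myd88 (-1.48), Irak3 (-0.87) and Irak4 (-1.22) at 200 mg/kg. In the contrasts between days it turned Myd88 (-0.96) and Irak4 (-0.87) at 50 mg/kg, Ly96 (-1.08), Myd88 (-1.41), Irak3 (-0.75) and Irak4 (-1.06) at 100 mg/kg, and Ly96 (-1.06), Myd88 (-1.11), Irak3 (-0.62) and Irak4 (-0.90) at 200 mg/kg. In the contrast with radiation it turned Irak3 (0.80) and Irak4 (0.85). A further 23 differences of single members, which passed under neither scaling, also changed sign. The scaling itself shifts all genes, as given with the median of all genes above.

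Without the mice with Alb above 100 CPM, 2 members were DEGs at 100 mg/kg on Day 1, and in 1 fit of all 60 mice 4 were at 200 mg/kg on Day 1. The cause was not tested. With single mice left out, the number ran from 0 to 0 members at 50 mg/kg on Day 0, 3 to 4 at 100 mg/kg (3 without mouse 37), 2 to 4 at 200 mg/kg on Day 1 (4 without mouse 26 or mouse 46), 5 to 8 after TBI (8 without mouse 51, 5 without mouse 52 or mouse 53) and 0 to 0 between the irradiated groups. Counts of members called changed by less than 1.5 times under RLE scaling, filterByExpr, no filter, DESeq2 and the odd or even term. No paired analysis was possible because the animal numbers in the labels are unique to each mouse and pair none across groups. In the unirradiated groups depth limits Ly96, Ticam2 and Cd14 most, whose mean levels were the lowest there. In both irradiated groups Tlr9 had the lowest mean. It had 19 to 107 counts per mouse with vehicle and 26 to 132 with BIO300. At 200 mg/kg on Day 1, Tlr9 had as few as 9 counts, in mouse 47.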

Other observations

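The remaining marker lists, given as values only, were as follows. T cell markers (8 genes) had a median sum of 520 CPM in Vehicle Day 1, 143 CPM at 100 mg/kg, 166 CPM at 200 mg/kg and 102 CPM after TBI. Natural killer cell markers (6 genes) were at 123, 95.1, 133 and 56.8 CPM in the same groups, and plasmacytoid dendritic cell markers (6 genes) at 67.4, 35.7, 40.9 and 6.84 CPM. Of the plasmacytoid list, 1 gene was a DEG on the higher and 2 on the lower side at 100 mg/kg. At 200 mg/kg these were 0 and 2, and after TBI 0 and 6. Monocyte markers (8 genes) had median sums of 1222, 1414, 1566 and 1438 CPM. However, 0 of the 8 genes were DEGs on the higher side and 4 on the lower side at 100 mg/kg (median log2 difference -0.96). These were 0 and 2 at 200 mg/kg (-0.57) and 2 and 2 after TBI (0.09). Mouse 51 had the highest monocyte sum of the irradiated vehicle group, at 6980 CPM. In the same order of groups, conventional dendritic cell markers (5 genes) were at 23.4, 50.4, 57.4 and 43.2 CPM, platelet markers (7 genes) at 2197, 16449, 20466 and 12858 CPM, and adipocyte markers (8 genes) at 3.95, 19.8, 11.9 and 22.6 CPM. The conventional dendritic list was split, with 2 genes DEGs on the higher and 2 on the lower side at 100 mg/kg, at 200 mg/kg and after TBI. Its median log2 differences there were 0.31, 0.20 and -0.07. Tlr8, the neighbour of Tlr7 on chromosome X and like it a receptor for single-stranded RNA, was at 11.7 ± 1.9 CPM in Vehicle Day 1, 4.9 ± 1.1 at 100 mg/kg, 5.3 ± 1.3 at 200 mg/kg and 24.8 ± 7.0 after TBI (SD, n = 6 each).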
